A study of Mus musculus with 3 samples.

Results

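Expression of 7 chemokine receptor genes, Ccr1, Ccr2, Ccr3, Ccr7, Ccrl2, Cxcr4 and Cx3cr1, was examined in RAW264.7 cells, a mouse macrophage line, challenged with lipopolysaccharide (LPS), a bacterial membrane lipid that is sensed by TLR4. The members were all array probes whose gene name was 1 of these 7 names, which gave 10 probes of the 56605 on the array and 7 of its 36870 gene names. Ccr1, Ccr2, Ccr3 and Ccrl2 had 1 probe each, and Ccr7, Cxcr4 and Cx3cr1 had 2. Total RNA was measured on 1-colour Agilent arrays under 3 conditions: macrophages given LPS for 3 h (LPS), macrophages given the Lactiplantibacillus plantarum strain LOC1 and then LPS for 3 h (LOC1 + LPS), and macrophages given the L. plantarum strain LOC3 and then LPS for 3 h (LOC3 + LPS). The sample labels give 12 h with the lactobacilli before LPS, and the methods give a longer time. All 3 conditions carried LPS, and unchallenged macrophages enter only through ratios that the authors deposited. RAW264.7 is a single transformed cell line, so no animals or donors were compared. The questions were which receptor genes differed when lactobacilli preceded LPS, and which had been listed as changed by LPS itself.

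Chemokine receptors are multi-pass membrane proteins that couple to inhibitory G proteins and steer leukocytes along gradients of chemokines, small secreted proteins. Ccr2, the receptor of Ccl2, draws monocytes out of the bone marrow and into inflamed tissue. Cx3cr1 binds the membrane-tethered chemokine Cx3cl1 and marks patrolling monocytes and many resident macrophages. Ccr7 directs activated dendritic cells towards lymph nodes, and Cxcr4, the receptor of Cxcl12, retains cells in the bone marrow. Ccr1 and Ccr3 bind inflammatory CC chemokines, Ccr3 being the eotaxin receptor of eosinophils. Ccrl2 is an atypical receptor that binds chemerin, the product of Rarres2, without signalling as the others do, and is a known LPS-inducible gene of macrophages.

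With 1 array per condition, no SD between samples, test or p-value could be given for a difference between conditions, and a difference between arrays may come from the culture, the RNA or the array as well as from the treatment. Between 47.8% and 51.9% of the probes were well above background on an array, the call that the scanner software makes for each spot against its local background. No spot was saturated. Of 10 macrophage markers, 9 were well above background on all 3 arrays and Cd163 was on none, and 4 of 5 T cell markers, Cd3e, Cd3d, Cd4 and Lck, were also well above background on all of them. Intensities below are the deposited background-subtracted values in arbitrary units, and log2 differences are between intensities divided by the 75th percentile of their array. The technical SD of a log2 difference came from those of 300 probes, printed 10 times on each array, whose spots were all well above background. It was 0.06 for bright probes and between 0.26 and 0.30 for dim ones, whose mean lay more than 2-fold below the 75th percentile. The bright value rests on 269 probes and the dim value on only 8 to 11 per array. The technical SD covers the error between spots and not that between cultures. Levels of different probes cannot be set against each other.

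Among the 7 receptor genes, Cx3cr1 and Ccr7 were more than 2-fold lower on both arrays with lactobacilli, while Ccrl2 and Cxcr4 were higher and Ccr2 was lower by less than 2-fold. The difference of Cx3cr1 was at least 11.9-fold with LOC1 and at least 8.75-fold with LOC3. For Ccr7 it was 5.46-fold with LOC1 and at least 5.41-fold with LOC3. Ccr1 and Ccr3 were not well above background on any array. Thus 5 of the 7 genes, through 6 of the 10 probes, gave a value on at least 1 array, and 3 of them, Ccr2, Ccrl2 and Cxcr4, on all 3. Of the 5 genes compared, 2 were past 2-fold lower with LOC1, where 3.81% of 20034 genes tested were, and 0 were past 2-fold higher, where 2.49% were. With LOC3, 2 of 5 were past 2-fold lower against 3.18% of 19816 genes, and 0 were higher against 3%. Cx3cr1 with both strains, and Ccr7 with LOC3, entered through the LPS array alone, so they could only be called lower or not at all. With both arrays required well above background, 1 gene with LOC1 and 0 with LOC3 were past 2-fold. Both comparisons used the same LPS array, so an error of that array would enter both.

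**Figure D1:**
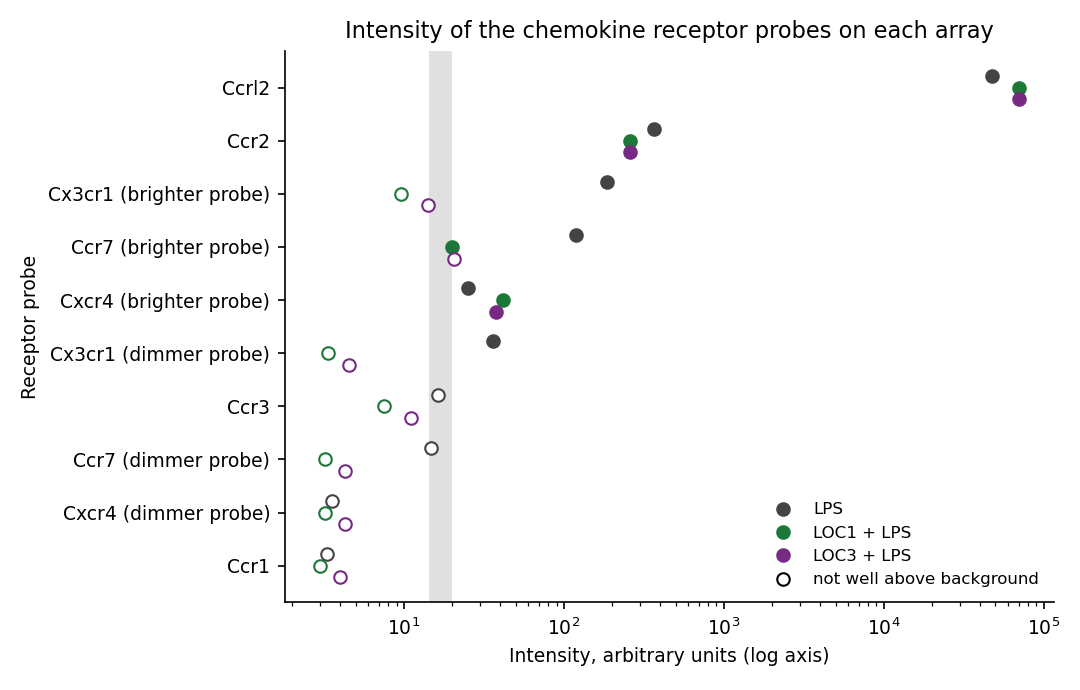
Intensity (arbitrary units, log axis) of each of the 10 receptor probes on the LPS, LOC1 + LPS and LOC3 + LPS arrays, 1 point per array, with open points where the probe was not well above background and a grey band from the lowest to the highest of the arrays' lowest intensities well above background (14.5 to 19.8). Ccrl2 and Ccr2 were well above background on all arrays, whereas both Cx3cr1 probes were so on the LPS array alone.

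Of these genes, 5 lie on mouse chromosome 9, and the probes of Ccr1, Ccr3 and Ccr2 fall within 145 kb of each other in the mm9 build. The letters before the transcription start are shown for Ccrl2 and Cxcr4, which were higher with both strains, and for Ccr2 and Cx3cr1, which were lower. Each run holds the 250 bases before the start on the gene's own strand, 5′ to 3′, from RefSeq on GRCm38.p6, at chr9:111057519-111057768 (minus strand) for the first of 3 Ccrl2 starts, chr1:128592300-128592549 (minus) for Cxcr4, chr9:124101933-124102182 (plus) for Ccr2 and chr9:120068297-120068546 (minus) for Cx3cr1. Capitals mark matches to 3 patterns searched on both strands, GGGNNTTTC (kappa-B type), GAAANNGAA (interferon-stimulated response element type) and GAGGAAGT (PU.1 type).
Ccrl2: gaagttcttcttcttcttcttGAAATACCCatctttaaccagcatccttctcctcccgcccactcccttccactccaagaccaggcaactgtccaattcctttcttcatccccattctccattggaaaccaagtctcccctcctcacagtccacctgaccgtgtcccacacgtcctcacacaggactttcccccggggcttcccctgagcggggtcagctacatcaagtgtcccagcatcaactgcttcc
Cxcr4: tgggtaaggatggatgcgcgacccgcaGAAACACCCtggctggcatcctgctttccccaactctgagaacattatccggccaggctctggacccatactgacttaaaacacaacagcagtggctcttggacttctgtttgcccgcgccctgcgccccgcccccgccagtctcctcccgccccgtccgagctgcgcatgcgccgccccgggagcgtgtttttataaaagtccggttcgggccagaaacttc
Ccr2: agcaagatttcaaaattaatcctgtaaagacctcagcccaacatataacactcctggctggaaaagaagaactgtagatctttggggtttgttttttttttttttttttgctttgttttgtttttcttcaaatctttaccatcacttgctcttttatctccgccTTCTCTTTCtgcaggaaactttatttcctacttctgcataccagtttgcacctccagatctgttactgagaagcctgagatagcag
Cx3cr1: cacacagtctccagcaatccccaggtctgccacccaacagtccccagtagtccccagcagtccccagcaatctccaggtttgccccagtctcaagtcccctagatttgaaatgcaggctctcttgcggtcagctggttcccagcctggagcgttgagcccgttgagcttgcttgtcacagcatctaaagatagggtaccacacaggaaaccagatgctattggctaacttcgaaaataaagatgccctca
The kappa-B pattern was matched on the opposite strand from -229 to -221 in Ccrl2 and from -223 to -215 in Cxcr4, counted from the start site. The interferon-type pattern was matched on the opposite strand from -86 to -78 in Ccr2, and none of the 3 patterns was in the Cx3cr1 window. RefSeq windows were at hand for 6 of the 7 genes, Ccr7 not among them, and 4 of their 8 windows held a match, the other one being a kappa-B match in Ccr3 from -178 to -170. Over 32851 windows of the same length, 3.72% held the kappa-B pattern, 7.13% the interferon-type pattern and 2.44% the PU.1 pattern. A match in letters is a description and says nothing of a protein bound there.

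Cx3cr1, the fractalkine receptor, was read by a pair of probes on the minus strand, the brighter at chr9:119957811-119957870 and the dimmer at chr9:119959018-119959077 (mm9). The intensity of the brighter probe was 187 on the LPS array, 9.57 on the LOC1 + LPS array and 14.2 on the LOC3 + LPS array. It was well above background with LPS alone, and on both lactobacilli arrays it lay below the lowest intensity well above background, 14.5 and 19.8. The resulting log2 differences are bounds of -3.57 with LOC1 and -3.13 with LOC3. The dimmer probe had 36.2, 3.37 and 4.52 on the same arrays, and was likewise well above background with LPS alone. Its decrease was at least 2.31-fold with LOC1 and at least 1.70-fold with LOC3, the second of these under 2-fold, and both probes moved the same way. Whether LOC1 and LOC3 differed for Cx3cr1 cannot be given, since neither array measured it. Under normexp background correction, which adds 50 to every intensity, the bounds shrank to -1.57 and -1.53. With the mean over both probes in place of the brighter one, they were -2.39 with LOC1 and -1.95 with LOC3.

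Its ligand Cx3cl1 was also lower: the intensity was 80.1 with LPS, 15.1 with LOC1 + LPS and 25.6 with LOC3 + LPS. The LOC1 value was not well above background, which gives at least 4.90-fold lower, and with LOC3 the ligand fell by 1.54 on the log2 scale. Receptor and ligand thus both had their highest intensity on the array without lactobacilli.

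Ccr7, the lymph-node homing receptor, had its brighter probe at chr11:99005551-99005610 (minus strand, mm9). Its intensity was 119 with LPS, 20.1 with LOC1 + LPS and 20.4 with LOC3 + LPS. It was thus high with LPS alone and close to the background limit on both other arrays, well above background on the LOC1 array but not on the LOC3 array. The log2 difference was -2.45 with LOC1, 9.26 technical SDs from 0, and the bound with LOC3 was -2.43. The dimmer probe, with 14.7, 3.20 and 4.30, was not well above background on any array and gave no fold. Under normexp correction the differences were -1.05 with LOC1 and -0.97 with LOC3, the latter under 2-fold.

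Ccr7 is also a dendritic cell marker. Of the 4 dendritic markers other than Ccr7, Xcr1 alone was past 2-fold lower with each strain, where 3.81% (LOC1) and 3.18% (LOC3) of all genes were. Xcr1 was well above background with LPS alone, so it could only be called lower or not at all. Clec9a, a defining marker, was not well above background on any array. Zbtb46, a transcription factor of classical dendritic cells, had intensities of 591, 320 and 281 and log2 differences of -0.77 and -0.97. Flt3, a cytokine receptor of dendritic progenitors, was well above background with LPS alone, at 25.5. Some markers of other cell types were lower too, of which 2 are named here after their values were seen, the macrophage Fc receptor gene Fcgr3 (-1.65 and -1.42) and the eosinophil marker Siglecf (-1.11 with LOC1 and a bound of -1.10 with LOC3). Of the 9 macrophage markers compared, Fcgr3 alone was past 2-fold lower with each strain. None was past 2-fold higher, where 2.49% (LOC1) and 3% (LOC3) of all genes were. Several went the other way by less than 2-fold, among them Adgre1 (0.57 and 0.38) and Mertk (0.66 and 0.62). The B cell marker Ms4a1 stood at 1.06 with LOC1 and at a bound of -0.44 with LOC3. The part of these markers in the Ccr7 difference was not tested. RAW264.7 is a single cell line, so a marker here stands for a transcript and not for a separate cell type. In a bulk sample, fewer cells with a transcript and less of it per cell cannot be told apart. The Ccr7 ligands Ccl19 and Ccl21a were not well above background on any array.

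Ccrl2, the atypical chemerin receptor, was read at chr9:110957839-110957898 (minus strand, mm9). Its intensity was 47754 with LPS, 69759 with LOC1 + LPS and 70397 with LOC3 + LPS. Both lactobacilli arrays lay above the LPS array and close to each other. The log2 difference was 0.66 with LOC1 (1.58-fold higher, 11.6 technical SDs) and 0.66 with LOC3 (1.58-fold, 10.4 technical SDs), under the 2-fold threshold. Between LOC1 and LOC3 it was -0.00, within the technical SD. The chemerin gene Rarres2 was not well above background on any array, with intensities of 15.5, 7.08 and 4.49.

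Cxcr4, the Cxcl12 receptor, had its brighter probe at chr1:130485079-130485138 (minus strand, mm9), and even this probe was dim. Its intensity was 25.2 with LPS, 41.8 with LOC1 + LPS and 37.7 with LOC3 + LPS, so that LPS alone was again the lowest. The log2 difference was 0.84 with LOC1 (1.80-fold higher, 3.19 technical SDs) and 0.69 with LOC3 (1.61-fold, 2.29 technical SDs). The LOC1 value passed 2-fold when arrays were scaled to their median (1.06) or quantile normalized (1.04), and it was 0.33 under normexp correction. The dimmer probe at chr1:130486114-130486173 stayed at background everywhere, with 3.54, 3.21 and 4.26. Cxcl12 was not well above background on any array either.

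Ccr2, the monocyte receptor of Ccl2, was read at chr9:124022948-124023007 (plus strand, mm9). Its intensity was 364 with LPS, 258 with LOC1 + LPS and 259.8 with LOC3 + LPS, so the LPS array was the highest and the others were nearly equal. The log2 difference was -0.38 with each strain, 6.78 technical SDs with LOC1 and 6.01 with LOC3. These multiples use the technical SD of bright probes. The normalized log2 values of Ccr2, -0.61, -0.99 and -0.99, lay close to the limit of that class, and the technical SD of dim probes was between 0.26 and 0.30. When arrays were scaled to their median, which raises the median difference of all genes to 0.22 with either strain, Ccr2 stood at -0.17 with LOC1 and -0.20 with LOC3. Its main ligand Ccl2 had intensities of 307278, 284587 and 294842, and differed by 0.00 and 0.04 on the log2 scale. Ccl7, another Ccr2 ligand, differed by 0.25 with LOC1 and 0.19 with LOC3. Ccl12, the mouse MCP-5 chemokine, was lower by less than 2-fold, with -0.75 and -0.59.

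Ccr1, a receptor of Ccl3 and Ccl5, had intensities of 3.33, 2.98 and 3.98 at chr9:123877790-123877849 (minus strand, mm9). Ccr3, the eotaxin receptor, had 16.4, 7.50 and 11.0 at chr9:123945225-123945284 (plus strand, mm9). Neither was well above background on any array, so no fold is given. Their ligands Ccl3 and Ccl5 were well above background on all arrays, with log2 differences of 0.12 and 0.08 for Ccl3 and of 0.11 and 0.23 for Ccl5. Ccl24, the eotaxin-2 ligand of Ccr3, was lower with both strains: its intensity was 1001 with LPS, 74.9 with LOC1 + LPS and 53.9 with LOC3 + LPS. The log2 difference was -3.63 for LOC1 and -4.11 for LOC3, while Ccl11 and Ccl26 were not well above background on any array.

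**Figure D2:**
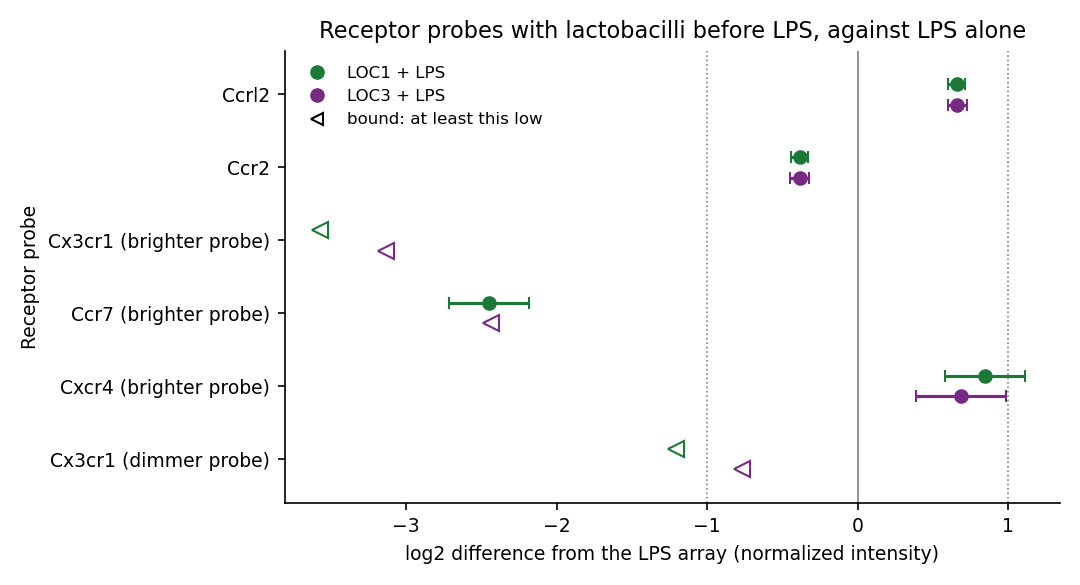
log2 difference of normalized intensity from the LPS array for the 6 receptor probes well above background on at least 1 array, with LOC1 and LOC3 in different colours; bars are ± 1 technical SD, open triangles are bounds, and dotted lines mark 2-fold. Ccrl2 and Cxcr4 lie right of 0 and Ccr2 left of it within 2-fold, and the brighter probes of Cx3cr1 and Ccr7 lie beyond 2-fold lower with both strains.

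Between LOC1 + LPS and LOC3 + LPS, 4 of the receptor genes had a signal above background on 1 array or both and 0 were past 2-fold, where 0.799% of 19402 genes were higher and 1.87% lower with LOC1. For Ccr2 and Ccrl2 the difference was -0.00, and for Cxcr4 it was 0.16, all within their technical SD of 0.06 or 0.27. For Ccr7, seen well above background with LOC1 but not with LOC3, no fold can be given. Among genes that every array showed well above background, those with the pair of differences closest to a receptor's were Fryl and Zfp672 for Ccrl2, Acta2 and Fanci for Ccr2, and Plekha4 and Dram2 for Cxcr4. Likeness was the distance between the pairs of log2 differences from LPS over the 3 arrays. Within 0.25 of Ccr2 lay 13.0% of 17405 genes, within 0.25 of Ccrl2 5.35% and within 0.25 of Cxcr4 3.26%, so many genes shared each pattern.

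The deposited log2 ratios addressed how LPS changed the receptors relative to unchallenged macrophages. The authors listed 5 of the 10 probes, 1 for each of 5 genes, and neither Ccr1 nor Ccr2 was among them. A probe with no entry was not thereby within 2-fold: 17 unlisted probes, well above background on all 3 arrays, spanned over 4-fold between them. For the LPS array, 3 of the 10 probes were listed higher, those of Ccrl2, Ccr7 and Ccr3, where 7.08% of all 56605 probes were. Another 2 of the 10 were listed lower, for Cx3cr1 and Cxcr4, where 6.31% were. When dim signals were held at the background limit, 3 of these genes, Ccr7, Ccrl2 and Cx3cr1, stayed past 2-fold.

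Ccrl2 had deposited ratios of 6.87 with LPS, 7.56 with LOC1 + LPS and 7.57 with LOC3 + LPS, so it was highest with lactobacilli. The LPS ratio corresponds to 117-fold, from an implied unchallenged intensity of 408. Ccr7 had 5.25, 2.84 and 2.86, the highest with LPS alone. Its implied unchallenged intensity of 3.11 lay under the background limit, so Ccr7 was at least 7.27-fold higher with LPS and at least 1.33-fold higher with LOC1 + LPS than without a challenge.

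Cx3cr1 was listed through its dimmer probe alone, with -4.39 with LPS, -7.66 with LOC1 + LPS and -7.25 with LOC3 + LPS. The implied unchallenged intensity of this probe was 757, the LPS ratio corresponds to 20.9-fold lower, and both lactobacilli arrays were lower still. The brighter probe has no entry, so its change from unchallenged cells is not known here, and with the brightest probe of each gene alone Cx3cr1 and Cxcr4 drop out of the listed genes. As bounds, the decrease of Cx3cr1 from unchallenged cells was at least 48.2-fold with LOC1 + LPS and at least 35.5-fold with LOC3 + LPS. Cxcr4 was listed through its dimmer probe, with -3.03, -3.03 and -2.62. None of the 3 arrays had that probe well above background, and from an implied unchallenged intensity of 28.9 it was at least 1.77-fold lower with LPS. The deposited 1.13 of Ccr3 had no signal well above background behind it and gave no fold.

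**Figure D3:**
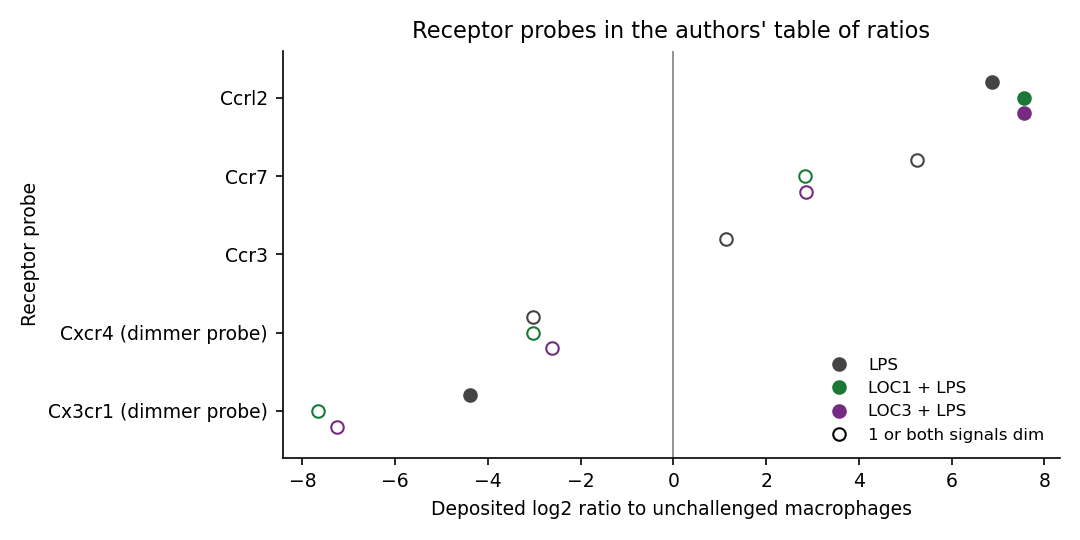
Deposited log2 ratio to unchallenged macrophages (x axis) for the 5 receptor probes that the authors' table lists, 1 point per array, with open points where the array's signal or the implied unchallenged signal was dim. Ccrl2 lies between 6.87 and 7.57, and Ccr7 is highest with LPS alone at 5.25. Cx3cr1 is lower with both strains than with LPS alone, its points with lactobacilli being dim and not to be ranked.

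Of 18 ligand genes of these receptors on the array, 12 had a signal well above background. With LOC1, 1 was past 2-fold higher, Ccl8, and 2 were lower, Ccl24 and Cx3cl1, beside 2.49% and 3.81% of all genes. Ccl8, a monocyte attractant that binds Ccr2 and other receptors, had intensities of 342, 811 and 288 and differed on the log2 scale by 1.36 for LOC1 and by -0.15 for LOC3. With LOC3, 0 were higher and 2 lower, again Ccl24 and Cx3cl1, beside 3% and 3.18%. The median difference over the 12 ligands was 0.01 with LOC1 and 0.03 with LOC3, beside 0.00 and 0.03 over all genes tested.

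The 21 signalling and desensitisation genes on the array were each read by their brightest probe. Of these, 19 were well above background on all 3 arrays, 3 were past 2-fold higher with each strain and 0 were lower. Over all genes, 2.49% were higher and 3.81% lower with LOC1, and 3% and 3.18% with LOC3. All 3 encode RGS proteins, which speed the shut-off of G proteins, Rgs2 acting mainly on the Gq class and not on the inhibitory class. Rgs1 had intensities of 193, 869 and 684, and was 4.87-fold higher with LOC1 and 3.82-fold higher with LOC3. Rgs2 had 856, 3102 and 2296, which is 3.92-fold and 2.88-fold higher. Rgs14 had 558, 1132 and 1174, which is 2.20-fold and 2.26-fold higher, and all 3 genes had their lowest intensity with LPS alone. The median difference over the 19 genes was 0.15 with LOC1 and 0.18 with LOC3, beside 0.00 and 0.03 over all genes tested. The probes of Dock2 disagreed: its brightest was at -0.36 with LOC1 and -0.23 with LOC3. A dimmer Dock2 probe, well above background on all 3 arrays, was past 2-fold lower, at -1.21 and -1.39.

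**Figure D4:**
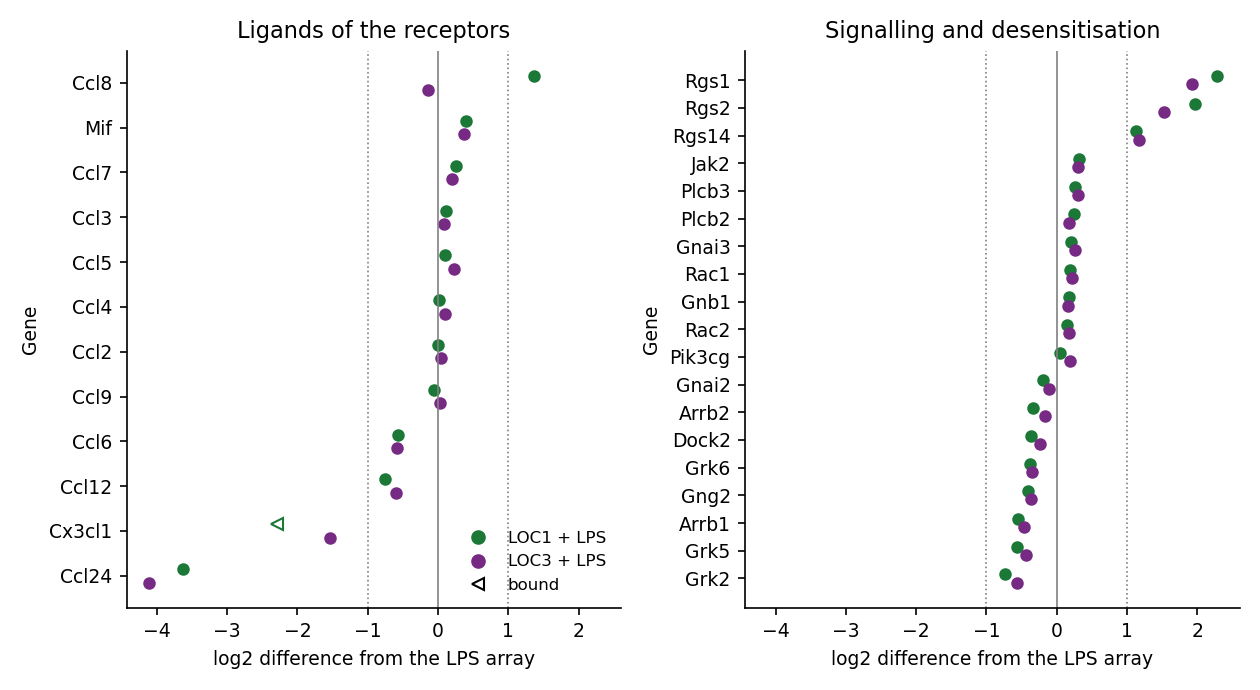
log2 difference of normalized intensity from the LPS array for the 12 ligand genes (left) and 19 signalling genes (right) well above background on at least 1 array, with LOC1 and LOC3 in different colours, bounds as open triangles and dotted lines at 2-fold. Ccl24 and Cx3cl1 lie beyond 2-fold lower with both strains, Ccl8 beyond 2-fold higher with LOC1, and Rgs1, Rgs2 and Rgs14 beyond 2-fold higher with both.

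Of the 19 other chemokine receptor genes on the array, 11 had a signal well above background, 6 of them on all 3 arrays. Xcr1, the receptor of cross-presenting dendritic cells, had 49.4 with LPS and then 3.37 and 4.53, a decrease of at least 3.15-fold (LOC1) and at least 2.32-fold (LOC3). Ccr4, a Th2 cell receptor, and Ackr4, a scavenging receptor of Ccr7 ligands, were well above background with LOC1 + LPS alone, at 57.3 and 57.4, each at least 3.80-fold higher than with LPS. Both genes have another probe, which no array showed well above background. With LOC1, 2 of the 11 were past 2-fold higher and 1 lower, and with LOC3, 0 of 8 were higher and 1 lower. The shares over all genes were 2.49% and 3.81% with LOC1, and 3% and 3.18% with LOC3.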

How the data were processed

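Spot by spot, the authors deposited an intensity, background-subtracted by Feature Extraction (version 12.0.3.1 by the file headers) with no scaling between arrays, and log2 ratios to unchallenged macrophages made in GeneSpring. For listed probes, 0 of 12931 blank cells rebuilt from the intensities reached 2-fold. The paper's methods select changed genes by fold, with 2-fold as the limit, and also by the p-value of a t-test. Whether the t-test kept other probes out of the table was not tested. The submitters' processing notes name limma and R 3.2.5. Each array held 62976 spots, and outlier spots (118 to 135 per array) were left out. Here, log2 intensity less the array's 75th percentile over non-control spots was averaged over the spots of a probe, and a gene was read by its brightest probe. A probe that failed the background call took the higher of its own signal and the array's lowest intensity well above background, which turns a fold into a bound. Differences of the deposited log2 ratios and of the normalized intensities were checked and matched up to a constant, with 0 of 5510 (LOC1) and 0 of 5534 (LOC3) probes off by over 0.01. The t-test of the methods needs more than 1 array per condition and was not run. The receptors, gene lists, motifs and the rule for named genes (the 7 receptors, other receptors and signalling genes past 2-fold, ligands, and the 2 genes closest to each receptor) were chosen with earlier results of these data known. With so few arrays, precision is limited. The procedure was tested on simulated data. The alternatives tried were median and quantile scaling, percentiles over other probe sets, normexp, the filter on dim signals, the mean of probes, outlier spots kept, a 3-fold threshold and the deposited ratios. Python 3.11.15, numpy 2.4.6, pandas 2.3.3, matplotlib 3.10.9, and limma 3.58.1 in R 4.3.3 for normexp with an offset of 50, were used.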

Additional observations from a re-analysis of the deposited data

How the results depend on the processing

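Of 124 receptor values recomputed under the alternatives, 103 moved by less than the technical SD, 118 kept their sign and 0 of those past 2-fold reversed. Requiring both arrays to be well above background left 1 receptor gene past 2-fold with LOC1 (Ccr7) and 0 with LOC3, against 2 with each strain, because Cx3cr1, and with LOC3 also Ccr7, could then not be compared. Under normexp correction 1 was left with LOC3, Cx3cr1. Of the 5 receptor genes listed against unchallenged macrophages, 3 were left when dim unchallenged signals were raised to a bound, and 3 when the brightest probe alone was used (Ccr3, Ccr7 and Ccrl2). The Cxcr4 difference between LOC1 and LPS was 0.00 in the deposited ratios, which list its dimmer probe. The share of calls that were higher was 39.5% with LOC1 and 48.5% with LOC3, against 65.2% and 68.9% after median scaling, 50.7% and 58.1% after quantile normalization, and 50.6% and 61.4% under normexp, with 213 higher and 208 lower calls with LOC1 and 251 and 158 with LOC3 in place of 499 and 764, and 594 and 630. Between LOC1 and LOC3, normexp left 42 higher and 111 lower calls in place of 155 and 362. Median scaling gave 885 higher and 473 lower calls with LOC1, and 871 and 394 with LOC3. The 75th percentile over distinct probes was an alternative chosen after seeing the data, and it moved no receptor value by more than the technical SD. The dim signal of Ccr1, Ccr3, Cxcr4 and the second probes limits what these arrays can show. No paired analysis was possible because each condition had 1 array, and leaving out replicates was likewise not possible.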
